A study of Rattus norvegicus with 18 samples.

Results

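Adipoq and Lep encode adiponectin and leptin, the best known hormones secreted by adipocytes. Their transcripts were followed in visceral white adipose tissue (vWAT) of 18 male rats, as 2 genes among the 32883 of the deposited table. Adipoq was taken by its Ensembl identifier, ENSRNOG00000001821. Lep was taken by its place on chromosome 4, which holds ENSRNOG00000045797, because the table pairs no identifier with a symbol. Their rows were taken by identifier and place, not by a measured value, though both genes were chosen with earlier results of these data known. Libraries came from 6 Wistar-Kyoto (WKY) rats, the normotensive controls, from 6 spontaneously hypertensive rats (SHRs) that drank tap water (SHR-Water), and from 6 SHRs given 1 g/L trimethylamine oxide (TMAO), a metabolite of dietary choline and carnitine, in that water (SHR-TMAO). The SHRs were 7 to 8 weeks old at the start, were assigned at random to water or TMAO and were treated for 22 weeks, whereas the age of the WKY rats is not given in the sources used here. SHR and WKY rats are separate inbred strains, so a difference between them cannot be told apart from any other difference of strain.

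Adiponectin is made almost only by adipocytes and circulates as multimers that act through the receptors AdipoR1 and AdipoR2 to raise fatty acid oxidation and insulin sensitivity. Its circulating level usually falls as fat mass grows. Leptin is released in proportion to fat stores and adipocyte size, and it lowers food intake through its receptor in the hypothalamus. Both genes are turned on during adipocyte differentiation, with PPARG and members of the C/EBP family among the known regulators of transcription. The receptors and the other genes of these pathways were not analysed here, since none of the identifiers could be matched to a symbol.

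On the build Rnor_6.0, Adipoq spans chr11:81330293-81344488 on the minus strand (14196 bp), and Lep spans chr4:56337695-56351818 on the plus strand (14124 bp). Each has 3 exon blocks after merging of the overlapping exons. From the 5′ end these are 71, 228 and 1740 bases long in Adipoq and 14, 178 and 3098 bases in Lep. The last block held 85.3% of the 2039 exonic bases of Adipoq and 94.2% of the 3290 exonic bases of Lep, so that most of the sequence on which reads were counted lay there. Neither gene overlaps any other annotated gene on either strand. The closest neighbour lies 14103 bp from Adipoq and 35897 bp from Lep.

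**Figure D1:**
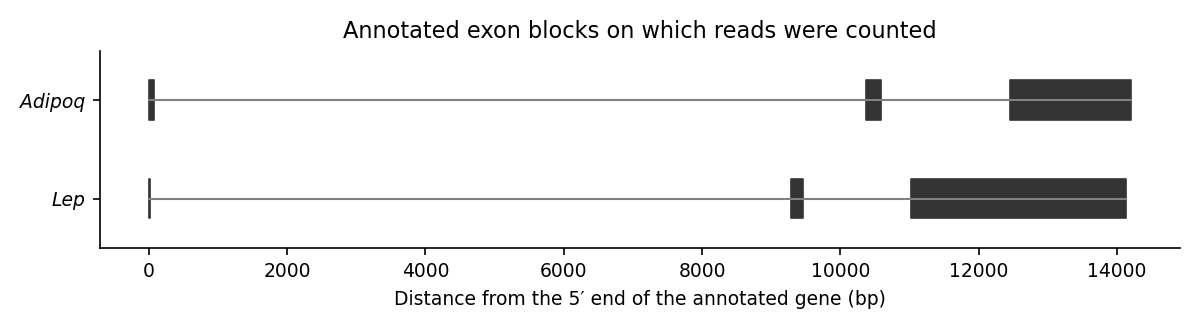
Exon blocks (dark boxes) of Adipoq and Lep along the annotated gene, with the distance from its 5′ end in bp on the x axis and introns as a grey line. In both genes the third block is by far the longest, with 1740 bases in Adipoq and 3098 in Lep, and the first block of Lep, with 14 bases, is only just visible.

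The sequences upstream of both genes are shown to place the transcripts, because this is where adipocyte transcription factors act. No measurement of these libraries reads them. They are RefSeq sequences of the build GRCr8, in which Adipoq also lies on chromosome 11 on the minus strand and Lep on chromosome 4 on the plus strand. They end at the outermost annotated start of the gene. The Adipoq sequence is chr11:91240245-91240419 (minus strand, 175 bases, 52.0% G or C) and the Lep sequence is chr4:58626288-58626528 (plus strand, 241 bases, 66.4% G or C). Capitals mark matches to any of 6 motifs searched on both strands: TATAA (the TATA box), CCAAT (the CCAAT box), GGGCGG (the Sp1 GC box), TTGCNNAA (a C/EBP palindrome), AGGTCA (the nuclear receptor half-site) and CACGTG (a perfect E-box).
Adipoq: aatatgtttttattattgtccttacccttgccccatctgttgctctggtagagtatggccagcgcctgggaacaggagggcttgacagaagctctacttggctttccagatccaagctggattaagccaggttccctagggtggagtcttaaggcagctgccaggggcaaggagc
Lep: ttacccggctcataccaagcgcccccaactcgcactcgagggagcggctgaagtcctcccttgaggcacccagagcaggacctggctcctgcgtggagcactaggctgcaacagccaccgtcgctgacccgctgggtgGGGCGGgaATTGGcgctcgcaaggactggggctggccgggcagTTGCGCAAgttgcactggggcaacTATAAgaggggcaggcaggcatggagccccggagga
The Lep sequence held 4 of the motifs, each at 1 place and with no overlap between them. GGGCGG began 103 bases before the gene start, CCAAT lay on the opposite strand (read here as ATTGG) from 95 bases before it, and TTGCNNAA and TATAA began 60 and 36 bases before it. In windows of the same length, GGGCGG was found in 29.6% of 33469 rat promoters, CCAAT in 33.2%, TTGCNNAA in 8.96% and TATAA in 23.5%. Such windows were cut from the beginning of each promoter sequence, so they need not end at the start of its gene. AGGTCA and CACGTG were not in the Lep window, and 13.6% and 5.4% of promoters hold them. None of the 6 motifs was in the shorter Adipoq window, where the shares of all promoters were 17.5% for TATAA, 25.2% for CCAAT, 20.1% for GGGCGG, 6.82% for TTGCNNAA, 9.66% for AGGTCA and 3.47% for CACGTG. These are letter matches and say nothing about binding.

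Between 10774133 and 18874161 counts were assigned to genes per rat. Genes of the mitochondrial genome took 7.08% to 28.5% of them, and the group means were 21.4% ± 5.43 for SHR-Water rats, 16.8% ± 3.52 for SHR-TMAO rats and 14.9% ± 5.12 for WKY rats (SD, n = 6 each). Both adipokines were counted deeply. Adipoq received 95350 to 229912 counts per rat and Lep 21917 to 64569, so that counting error is small beside the spread between rats. Per length of transcript (FPKM, which divides the counts by exon length and by the library total), Adipoq held a rank between 16 and 35 among all genes in each of the 18 rats, and Lep a rank between 68 and 168. The Adipoq FPKM was 4.60 to 7.70 times the Lep FPKM of the same rat. Adipoq is a defining transcript of adipocytes, and it stood among the most abundant in every library, each of which is labelled as vWAT. Markers of the other cells of the tissue were not analysed here, for lack of symbols. In whole tissue, fewer adipocytes and less of a transcript per adipocyte cannot be told apart.

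Levels within the groups are given as TMM-normalized CPM, that is counts scaled to a common library size with factors that also remove differences of composition. Adipoq ran from 8832 to 11221 CPM in WKY (median 9700), from 6533 to 9281 CPM in SHR-Water (median 8076) and from 8941 to 11220 CPM in SHR-TMAO (median 9709). The means were 9949 ± 1044, 8020 ± 890 and 9756 ± 816 CPM (SD, n = 6 each). The WKY and SHR-TMAO rats covered nearly the same range, and the SHR-Water rats lay lower. The lowest Adipoq level of all rats was that of SHR-Water replicate 1, and the only SHR-Water rat within the range of WKY was replicate 2, at 9281 CPM.

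Lep ran from 1973 to 3783 CPM in WKY (median 3090), from 2006 to 3050 CPM in SHR-Water (median 2434) and from 2081 to 3121 CPM in SHR-TMAO (median 2367). The means were 2949 ± 639, 2436 ± 361 and 2484 ± 355 CPM (SD, n = 6 each). WKY held both the highest Lep level, in replicate 4, and the lowest, in replicate 3, so that its range enclosed those of both SHR groups. The coefficient of variation of Lep was 21.7% among WKY rats, 14.8% among SHR-Water rats and 14.3% among SHR-TMAO rats, against 10.5%, 11.1% and 8.36% for Adipoq. On the order of the group means, SHR-Water was lowest for both genes and WKY highest. Neighbours in this order did not differ beyond their spread for Lep, nor did WKY and SHR-TMAO for Adipoq. The Adipoq ranges of SHR-TMAO (from 8941 CPM) and SHR-Water (up to 9281 CPM) also overlapped. With library totals in place of TMM factors, SHR-TMAO had the lowest Lep mean, at 2399 CPM against 2531 CPM in SHR-Water.

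**Figure D2:**
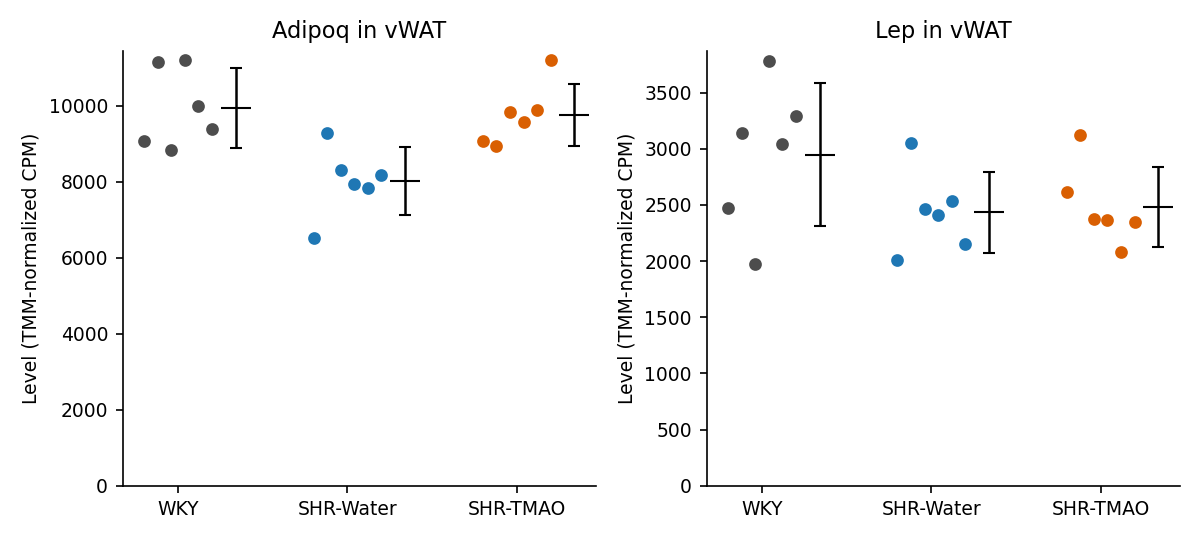
Adipoq (left) and Lep (right) in TMM-normalized CPM on the y axis for each rat (points, in order of replicate number) by group, with the mean ± SD of 6 rats in black. Adipoq lies lower in SHR-Water, at 6533 to 9281 CPM, than in the other groups, while the Lep range of WKY, 1973 to 3783 CPM, encloses those of both SHR groups.

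Setting SHR-Water against WKY asks how the adipokine transcripts of the hypertensive strain differ from those of the normotensive strain without TMAO. In SHR-Water, Adipoq stood at 0.791 times its WKY level (log2 fold change -0.34, SE 0.14, 95% interval -0.65 to -0.03). In edgeR's quasi-likelihood test with Benjamini-Hochberg adjustment over 13017 genes, the adjusted p was 0.167 (unadjusted p = 0.0342), so Adipoq was not called, in a comparison in which 6.13% of genes were. At the unadjusted p, 25.0% of genes fell under 0.05, so that a value such as that of Adipoq was common. For the single gene, 5 of 6 SHR-Water rats lay below every WKY rat, and the exact permutation test over all 924 assignments of the rats gave p = 0.00649 for a difference of -0.31 in mean log2 CPM (two-sided, smallest possible p 0.0022). The ranges overlapped through SHR-Water replicate 2, whereas 4.06% of genes had groups that did not overlap. DESeq2, the tool of the study, gave Adipoq an adjusted p of 0.0334 and the same log2 fold change of -0.34. Limma voom with quality weights gave an adjusted p of 0.0903 and -0.25. At an adjusted p under 0.05, DESeq2 called 1626 of 15922 genes and limma voom 4697 of 13017. The methods of the study add a limit of 1 on the absolute log2 change, which Adipoq did not reach. The adjusted p of DESeq2 stayed under 0.05 in 5 of 12 fits that each left out a rat. Scaled by library totals alone, the exact p was 0.0671 for a difference of -0.29. The mitochondrial share was higher in SHR-Water than in WKY (21.4% against 14.9%), and with it as a covariate in edgeR the Adipoq log2 fold change was -0.19 (adjusted p = 0.364).

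In SHR-Water, Lep stood at 0.811 times its WKY level (log2 fold change -0.30, SE 0.17, 95% interval -0.67 to 0.06), and edgeR's adjusted p was 0.276. By the exact permutation test, the difference in mean log2 CPM was -0.26 with p = 0.143. The interval covers 0.629 to 1.04 times the WKY level, so it holds both no change and a decrease larger than that of Adipoq. Without WKY replicate 3, the rat with the lowest Lep level, the difference was -0.37 and the exact p 0.0195. Of the 12 exact tests that each left out a rat, only this 1 had p under 0.05, and p rose to 0.262 in the others. With the mitochondrial share as a covariate in edgeR, the log2 fold change was -0.10 (adjusted p = 0.741).

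Setting the treated against the untreated SHRs asks what TMAO in the drinking water changed within the hypertensive strain. Adipoq was 1.24 times as high in SHR-TMAO, with a log2 fold change of 0.31 (SE 0.13, 95% interval 0.04 to 0.59). The adjusted p of edgeR was 0.157 (unadjusted p = 0.0275). In this comparison edgeR called 0% of 12852 genes at an adjusted p under 0.05, while 25.0% had an unadjusted p under 0.05. At an adjusted p under 0.05, DESeq2 called 1180 of 13696 genes and limma voom 4103 of 12852. The paper, with DESeq2, also lists genes under that adjusted p for this comparison. Of the 6 SHR-TMAO rats, 4 lay above every SHR-Water rat, and the SHR-TMAO rat was the higher one in 34 of 36 pairs of rats from the groups. The ranges of these groups overlapped, and 1.34% of genes had ranges that did not. The exact permutation test gave p = 0.00649 for a difference of 0.29 in mean log2 CPM. DESeq2 (adjusted p = 0.0272, log2 fold change 0.31) and limma voom with quality weights (adjusted p = 0.0479, log2 fold change 0.29) gave Adipoq adjusted p-values under 0.05, again short of the fold limit of the study. The one of DESeq2 stayed there in 5 of 12 fits that left out a rat each. With library totals alone as the scale the difference was 0.20, with an exact p of 0.216. With the mitochondrial share as a covariate in edgeR, the log2 fold change was 0.24 (adjusted p = 0.225). The same SHR-Water rats enter this comparison and the previous one, so the opposite signs of Adipoq in them are not separate observations.

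With TMAO, Lep stood at 1.04 times its level in untreated SHRs (log2 fold change 0.06, SE 0.14, 95% interval -0.23 to 0.35, adjusted p of edgeR 0.810). In 18 of 36 pairs the SHR-TMAO rat was the higher one, and the exact permutation test gave p = 0.814. The interval covers 0.852 to 1.27 times the SHR-Water level, and changes within these bounds cannot be told from none at this spread. The sign of the Lep difference turned to -0.08 with library totals in place of TMM factors, and to -0.02 without SHR-TMAO replicate 2. It was 0.17 with an offset for the gene length trend of each library, and 0.09 with the mitochondrial share as a covariate.

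Between SHR-TMAO and WKY, which differ in both strain and TMAO, the Adipoq log2 fold change was -0.04 (SE 0.14, 95% interval -0.35 to 0.26, adjusted p of edgeR 0.891). In this comparison 7.75% of 12833 genes were called by edgeR, 23.4% had an unadjusted p under 0.05, and 4.03% had groups without overlap. The exact permutation test of the Adipoq difference gave p = 0.768, and all 6 SHR-TMAO rats lay within the range of the WKY rats. Lep was 0.834 times the WKY level, a log2 fold change of -0.26 (SE 0.17, 95% interval -0.62 to 0.10, adjusted p of edgeR 0.378). The exact permutation test of Lep gave p = 0.171, and p = 0.0260 without WKY replicate 3. Of the 12 exact tests of Lep that each left out a rat, only this 1 had p under 0.05. In no comparison did the 95% interval of either gene reach a log2 fold change of 1 in either direction.

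**Figure D3:**
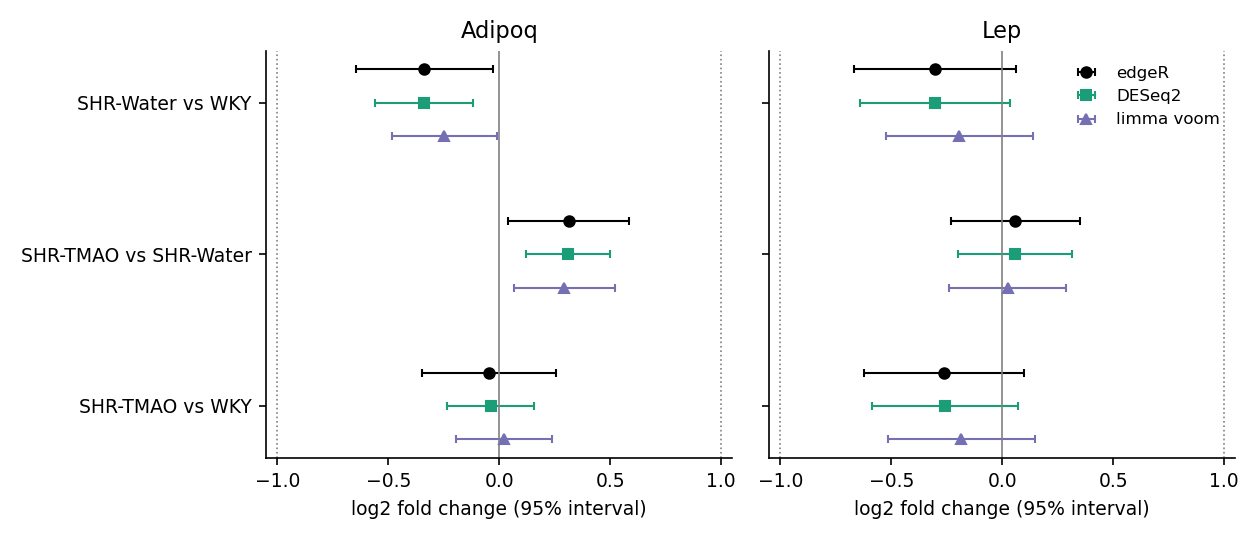
Log2 fold changes (x axis) of Adipoq (left) and Lep (right) with 95% intervals in the 3 comparisons (y axis), from edgeR (circles), DESeq2 (squares) and limma voom with quality weights (triangles), and dotted lines at -1 and 1. Adipoq lies below 0 in SHR-Water against WKY (edgeR -0.34) and above 0 in SHR-TMAO against SHR-Water (edgeR 0.31), and all Lep intervals include 0.

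Set among all genes tested, both genes varied less between rats than the median gene. The absolute log2 fold change of Adipoq was larger than that of 54.5% of genes between SHR-Water and WKY, of 56.5% between SHR-TMAO and SHR-Water and of 10.5% between SHR-TMAO and WKY. For Lep these shares were 50.2%, 12.2% and 52.5%. The biological coefficient of variation fitted by edgeR was 0.158 to 0.180 for Adipoq over the 3 comparisons and 0.177 to 0.222 for Lep, while the median of all genes was 0.262 to 0.288. Only 4.54% to 8.60% of genes varied less than Adipoq. These shares are over genes of all count levels, and a comparison with genes counted as deeply was not made.

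The share of mitochondrial counts moved with Adipoq. Over the 18 rats, Pearson's r between that share and log2 Adipoq CPM was -0.789 (permutation p = 0.00019, 0.00133 after Benjamini-Hochberg adjustment over the 7 relations computed), with a Spearman rho of -0.742 (permutation p = 0.00079). Without the 2 rats of most distant mitochondrial share, r was -0.628. Within groups, r was -0.960 among WKY rats (exact permutation p = 0.00139, rho -1, exact p = 0.00278), -0.633 among SHR-Water rats (exact p = 0.181, rho -0.657, exact p = 0.175) and -0.386 in SHR-TMAO (exact p = 0.446, rho -0.429, exact p = 0.419). Both quantities come from the same library, and why they move together was not tested. SHR-Water replicates 1 and 5 had the highest mitochondrial shares, and without them r within SHR-Water was 0.600. With the mitochondrial genes left out of the table, the Adipoq log2 fold changes in edgeR were -0.31 between SHR-Water and WKY (adjusted p = 0.169) and 0.30 between SHR-TMAO and SHR-Water (adjusted p = 0.167).

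For Lep, r with the mitochondrial share was -0.450 over the 18 rats (permutation p = 0.0604, adjusted over the 7 relations 0.141, rho -0.209, permutation p = 0.403). With the 2 most distant rats left out it was -0.388. Within groups it was -0.862 in WKY (exact p = 0.0278, rho -0.829, exact p = 0.0583), -0.196 in SHR-Water (exact p = 0.707, rho -0.086, exact p = 0.919) and 0.629 in SHR-TMAO (exact p = 0.192, rho 0.543, exact p = 0.297).

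The libraries also differed in how counts depended on gene length, read as Spearman's rho across 13325 genes between length and the deviation of a gene from its mean over the rats. This rho ran from -0.205 to 0.440 in SHR-Water, from -0.400 to 0.258 in WKY and from -0.348 to 0.108 in SHR-TMAO. Over the 18 rats its r with Adipoq was -0.212 (permutation p = 0.399, rho -0.362, permutation p = 0.141, without the 2 farthest rats -0.143), and with Lep -0.012 (permutation p = 0.962, rho 0.067, permutation p = 0.794, without the 2 farthest rats -0.098). Within SHR-Water r was 0.760 with Adipoq (exact p = 0.0417, adjusted over the 7 relations 0.188, rho 0.714, exact p = 0.136) and 0.761 with Lep (exact p = 0.0806, adjusted 0.188, rho 0.771, exact p = 0.103). Leaving out the 2 farthest SHR-Water rats gave 0.555 and 0.189. Within WKY the sign was the opposite, with r at -0.115 for Adipoq (exact p = 0.806) and -0.405 for Lep (exact p = 0.410). Without the 2 farthest WKY rats these were -0.965 and -0.818. Within SHR-TMAO r was 0.103 for Adipoq (exact p = 0.833) and 0.121 for Lep (exact p = 0.794). With an offset for the trend of each library in edgeR, the log2 fold change of Lep between SHR-Water and WKY was -0.41 (unadjusted p = 0.0299, adjusted p = 0.161), and that of Adipoq was -0.30 (adjusted p = 0.181). Between SHR-TMAO and SHR-Water they were 0.17 for Lep (adjusted p = 0.435) and 0.26 for Adipoq (adjusted p = 0.234).

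The balance of both transcripts was read as Lep counts per 100 Adipoq counts, which needs no scaling of libraries. It does not remove the dependence of counts on gene length, and the ratio was not tested with the gene length offset. With that offset in edgeR, the log2 fold changes between SHR-TMAO and SHR-Water were 0.17 for Lep and 0.26 for Adipoq. Without it they lay farther apart, at 0.06 and 0.31. Between SHR-Water and WKY the offset gave -0.41 for Lep and -0.30 for Adipoq, against -0.30 and -0.34 without it. Counts of transcripts do not measure the hormones. The paper also measured leptin in serum, where it was significantly lower in both SHR groups than in WKY rats. It reports no significant difference in serum leptin between the SHR groups. The Lep transcript was at 0.811 times its WKY level in SHR-Water and 0.834 times in SHR-TMAO. Neither was called (adjusted p of edgeR 0.276 and 0.378). For SHR-TMAO the transcript ratio was 25.7 ± 5.34, against 30.4 ± 2.34 for SHR-Water and 29.5 ± 4.64 for WKY (SD, n = 6 each). SHR-TMAO rats ran from 20.9 to 34.9, SHR-Water rats from 26.3 to 32.9 and WKY rats from 22.3 to 35.0. In 4 of 6 SHR-TMAO rats it lay below every SHR-Water rat, and in replicate 2 it lay above all of them. The log2 ratio was 0.26 lower in SHR-TMAO than in SHR-Water, and this difference did not pass (exact permutation p = 0.0714, adjusted over the 3 comparisons 0.214). Without SHR-TMAO replicate 2 the difference was -0.35 and the adjusted exact p was 0.0260. Of the 12 exact tests that each left out a rat, only this 1 had an adjusted p under 0.05, and it rose to 0.409 in the others. Between SHR-Water and WKY the log2 ratio differed by 0.05 (exact p = 0.643, adjusted 0.643) and between SHR-TMAO and WKY by -0.20 (exact p = 0.199, adjusted 0.299).

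**Figure D4:**
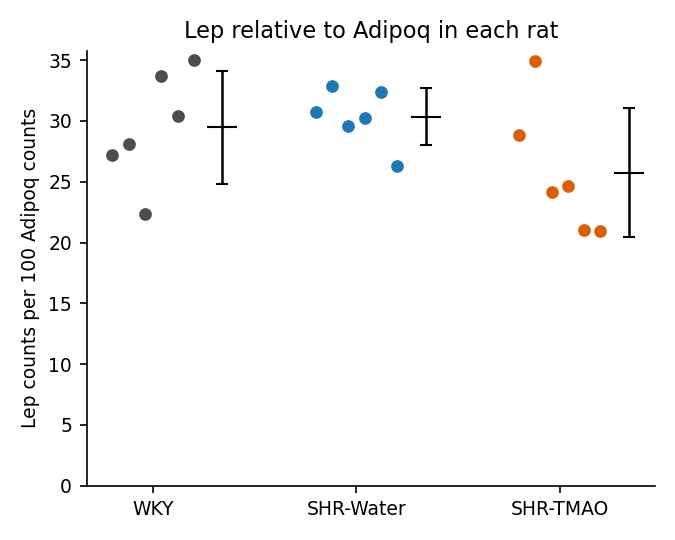
Lep counts per 100 Adipoq counts (y axis) in each rat (points, in order of replicate number) by group, with the mean ± SD of 6 rats in black. Of the SHR-TMAO rats, 4 lie below the SHR-Water range of 26.3 to 32.9, and replicate 2 lies above it at 34.9.

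The levels of Adipoq and Lep were also set against each other from rat to rat. Over the 18 rats, a Pearson r of 0.509 was found for log2 CPM (permutation p = 0.0308, adjusted over the 7 relations 0.108), with a Spearman rho of 0.362 (permutation p = 0.140). Leaving out the 2 rats farthest from the median of Adipoq gave an r of 0.239. Such a cut narrows the range of Adipoq, which can lower r by itself, so it does not show what the relation rests on. On the scale of library totals without TMM factors r was 0.620 (permutation p = 0.00431), and it was 0.489 after centring each group on its mean (permutation p = 0.0384). Within WKY r was 0.787 (exact p = 0.0625, rho 0.829, exact p = 0.0583, without the 2 farthest rats 0.787). Within SHR-Water r was 0.836 (exact p = 0.0667, rho 0.600, exact p = 0.242), but -0.447 without the 2 farthest rats. Within SHR-TMAO the sign was the opposite, with r at -0.601 (exact p = 0.197, rho -0.886, exact p = 0.0333, without the 2 farthest rats -0.846). Whether these correlations differ between groups was not tested.

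**Figure D5:**
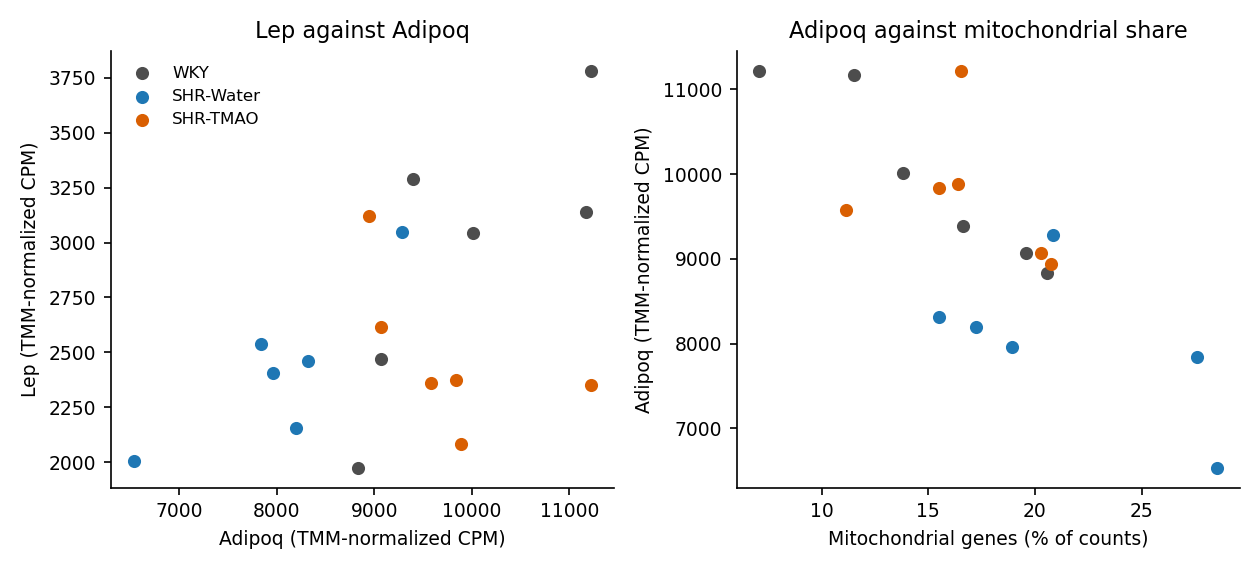
Left, Lep against Adipoq, both in TMM-normalized CPM, for the 18 rats coloured by group (r = 0.509). Right, Adipoq in TMM-normalized CPM against the percentage of counts on mitochondrial genes (r = -0.789 over all rats), with SHR-Water replicate 1 at the lower right with the lowest Adipoq level, 6533 CPM.

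Among the 13324 other genes, Lep took place 484 in the order of correlation with Adipoq, and Adipoq took place 386 for Lep. After centring each group on its mean the places were 2068 and 1176. The median r of all genes was near 0 (-0.01 for either), and its 95% quantile was 0.465 for Adipoq and 0.448 for Lep. The pattern most like that of Adipoq was that of ENSRNOG00000009754 (chr6:52122085-52156472, plus strand), with r = 0.880 over 18 rats and 0.822 after centring each group on its mean. Next came ENSRNOG00000028411 (chr11:47061354-47068648, plus strand), with r = 0.870 and 0.780. For Lep they were ENSRNOG00000002256 (chr14:17143040-17225389, minus strand), with r = 0.847 before and after centring, and ENSRNOG00000018687 (chr3:13871517-13896838, minus strand), with r = 0.819 and 0.840. These 4 genes were picked for their correlation out of all genes, so the values are descriptions. The files give no names for them.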

How the data were processed

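RNA-seq was performed on vWAT of 18 rats in 3 groups of 6, which were taken from the sample titles and labels. The authors deposited whole-number read counts per gene, not normalized, made with cutadapt 2.5, HISAT2 2.1.0 and reverse-stranded counting with featureCounts 1.6.3 on Rnor_6.0 (Ensembl annotation, per the file header; the paper's methods name GENCODE). Adipoq and Lep, and the gene lists prepared, were chosen with earlier results of these data known. The rule for named genes was Adipoq, Lep, members of 12 lists (133 symbols) and the genes most like Adipoq or Lep in pattern (the first 2, unnamed). The reference table matched 0 of 32883 identifiers, so no list was used.

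The quasi-likelihood test of edgeR 4.0.16 (R 4.3.3) was applied to the counts (TMM, filterByExpr, 2 groups per fit, Benjamini-Hochberg adjustment over all genes tested), with DESeq2 1.42.0 and limma 3.58.1 as alternatives. DESeq2 also works on counts and is the tool of the study, which called genes at an adjusted p under 0.05 with its fold limit. Standard errors were the log2 fold change divided by the square root of F. FPKM used library totals and exon length. Log2 CPM of Adipoq and Lep had no pseudocount, and the search over all genes for like patterns used log2(CPM + 0.5). Exact permutation tests (Python 3.11.15, scipy 1.17.1) used all 924 assignments of 12 rats, correlations within a group all orderings, and correlations over 18 rats 100000 permutations. All were two-sided. Scripts were tested on simulated data. Rats are taken as separate animals from the labels. The closest pair of libraries, WKY replicates 1 and 3, differed by 13.2 times the sampling noise (chi-square per degree of freedom), so none was counted as a repeat.

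Alternatives were other scalings and filters, all 18 rats in 1 fit, a gene length offset, mitochondrial genes left out, a replicate block and leaving out each rat. DESeq2 with each rat left out, the mitochondrial share as a covariate, and the exact tests of Adipoq and Lep on other scales, paired or with a rat left out were chosen after seeing the data.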

Additional observations from a re-analysis of the deposited data

How the results depend on the processing

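Adipoq kept its sign in SHR-Water against WKY and in SHR-TMAO against SHR-Water under every alternative tried. By edgeR, with a rat left out, its log2 fold change lay between -0.37 and -0.27 (adjusted p 0.185 to 0.309) and between 0.26 and 0.35 (adjusted p 0.106 to 0.273). DESeq2 gave -0.34 and 0.31 with all rats, and limma voom -0.25 (adjusted p 0.0903) and 0.29 (adjusted p 0.0479). With a rat left out DESeq2 gave -0.38 to -0.28 (-0.31 without WKY replicate 2, adjusted p 0.0171 to 0.0916) and 0.26 to 0.35 (adjusted p 0.00917 to 0.0868). The adjusted p of DESeq2 in SHR-Water against WKY rose above 0.05 without WKY replicate 4 or 5 or SHR-Water replicate 1, 3, 4, 5 or 6 (adjusted p 0.0916, 0.0818, 0.0534, 0.0729, 0.0872, 0.0783 and 0.0565). That in SHR-TMAO against SHR-Water rose above 0.05 without SHR-Water replicate 3, 4 or 5 or SHR-TMAO replicate 3, 4, 5 or 6 (adjusted p 0.0730, 0.0868, 0.0553, 0.0825, 0.0853, 0.0739 and 0.0680). The exact tests of Adipoq stayed under 0.05 with each rat left out (-0.36 to -0.25, p 0.00433 to 0.0152, and 0.23 to 0.33, p 0.00216 to 0.0108) but not with library totals alone (-0.29, p = 0.0671, and 0.20, p = 0.216). With mitochondrial genes left out, the exact tests gave -0.34 (p = 0.00433) and 0.30 (p = 0.00433). Why library totals alone gave a higher p was not tested.

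Signs turned only for differences near 0. Adipoq in SHR-TMAO against WKY was 0.023 by limma voom, 0.0013 with the mitochondrial covariate, and -0.083 to 0.00016 by edgeR, -0.078 to 0.0087 by DESeq2 and -0.067 to 0.010 by the exact test with a rat left out, with the highest values without WKY replicate 4 (exact test 0.0090 without WKY replicate 2). Lep in SHR-TMAO against SHR-Water was -0.077 by edgeR and -0.054 by the exact test with library totals. With a rat left out it was -0.021 to 0.12 by edgeR, -0.023 to 0.13 by DESeq2 and -0.039 to 0.096 by the exact test, below 0 without SHR-TMAO replicate 2 and, by the exact test, also without SHR-Water replicate 1 (-0.025) or 6 (-0.0038). The log2 ratio of Lep to Adipoq in SHR-Water against WKY was -0.022 to 0.11, below 0 without WKY replicate 3, and in SHR-TMAO against SHR-Water -0.35 to -0.20. With a rat left out, the exact test gave Lep -0.37 to -0.18 in SHR-Water against WKY and -0.34 to -0.15 in SHR-TMAO against WKY. The r of Adipoq with Lep was 0.62 on library totals or log2(FPKM + 1), 0.49 with groups centred, and 0.40 to 0.60 with a rat left out, with permutation p above 0.05 without WKY replicate 2 (0.46, p = 0.0627) or 4 (0.40, p = 0.111) or SHR-Water replicate 1 (0.40, p = 0.108).

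The number of genes called by edgeR depended on tool and rats. SHR-Water against WKY had 798 (DESeq2 1626, limma voom 4697, a rat left out 520 to 2504, at the extremes SHR-Water replicate 4 and WKY replicate 2, and 1454 without SHR-Water replicate 1). SHR-TMAO against SHR-Water had 0 (DESeq2 1180, limma voom 4103, all 18 rats in 1 fit 1, a rat left out 0 to 1863, the 1863 when SHR-Water replicate 1 was dropped, 1508 or 2 when SHR-TMAO replicate 1 or 2 was dropped). SHR-TMAO against WKY had 995 (DESeq2 1699, limma voom 2566, mitochondrial covariate 1540, a rat left out 644 to 1563, with 644, 661, 1563 and 647 without WKY replicate 1, 3, 4 and 6 and 658 without SHR-TMAO replicate 6).

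No label ties rats of the same number. Same-numbered rats deviated together with r above 0.1 in 5 of 6 pairs of SHR-Water with WKY (-0.304 to 0.553), in 0 of 6 of SHR-TMAO with SHR-Water (-0.386 to 0.0055) and in 1 of 6 of SHR-TMAO with WKY (-0.231 to 0.286), so not every pair of any comparison did, and 4 of 18 comparisons had a rat correlate best with its own number. With a replicate block, edgeR called 1070, 0 and 647 genes in the 3 comparisons in the order above, and the Adipoq log2 fold changes were -0.34, 0.32 and -0.04. The paired exact test of Adipoq in SHR-TMAO against SHR-Water gave 0.29 with p = 0.0625. With 6 pairs this test moves in coarse steps, and its smallest possible p is 0.03125. That smallest value was found for Adipoq in SHR-Water against WKY (difference -0.31). The block changed no other call of Adipoq, Lep or their ratio.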
